A study of Mus musculus with 6 samples.

Results

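Alternative first exons were taken here as exonic parts that begin some, but not all, of the transcripts of a gene. Exonic parts are the pieces left when overlapping exons are split at each of their annotated borders. A part was a member when it belonged to a single gene, touched no other part, was missing from at least 1 transcript of the gene, and, in every transcript that lists it, had no part upstream and at least 1 part downstream. By this rule 10035 of the 368092 deposited parts, 2.73%, were alternative first exons, and they lay in 6262 of 35981 single genes. Of these genes 2636 held 2 or more members and the highest number in a gene was 9. The rule used the annotation and no measured value.

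A gene with several promoters starts transcription at several places, and each start brings its own first exon, which is spliced to the exons downstream. The first exon has a splice donor at its 3′ end but no splice acceptor, so which first exon is used is set mainly by where transcription begins, while the joining of its donor end is done by the spliceosome. CD2BP2, named for its binding to the T cell surface protein CD2, carries a GYF domain and is also found in the U5 snRNP, the spliceosomal particle whose RNA contacts exon ends at the splice sites.

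Polyadenylated RNA labelled as coming from podocytes, the epithelial cells of the kidney filter, was sequenced in 3 libraries with the genotype CD2BP2 Knockout (KO) and 3 with the genotype Wildtype (WT), all on a C57BL/6 background. The treatment text that both groups share describes other material: bone marrow macrophages grown from CD2BP2flox/flox MxCre+ mice and littermates aged 6 to 10 weeks that had received 300 μg of poly (I:C). The labels name no Cre for podocytes, and they place the downstream loxP site after exon 3. Total part counts were 214948912 to 255554573 in KO libraries and 186022084 to 231312370 in WT libraries, of which members held 0.567% to 0.604% in KO and 0.571% to 0.623% in WT. Nothing in the labels ties the libraries to different animals. The p-values below therefore reflect only how much these samples vary, and that variation may be technical.

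Cd2bp2, the targeted gene, stood at 48.44, 47.32 and 51.08 CPM (counts scaled to the library total after its adjustment by TMM normalization) in KO1, KO2 and KO3, against 60.82, 61.81 and 60.77 CPM in WT1, WT2 and WT3. Its log2 fold change was -0.32 (SE 0.05, edgeR quasi-likelihood adjusted p = 0.0297), and without 1 library it passed only without KO3 (adjusted p = 0.0457 to 0.146 over the 6 fits). The transcript was thus lower, but present, in all KO libraries. Cd2bp2 has 2 alternative first exons. Part 10, the outer one, had 192, 186 and 205 counts in KO and 212, 229 and 258 in WT, and part 9 had 52, 23 and 51 in KO and 46, 38 and 59 in WT. Neither passed the test of usage (diffSpliceDGE adjusted p = 1.00 for both). Nphs1, which encodes nephrin of the podocyte slit diaphragm, stood at 1874 to 2234 CPM in KO and 2794 to 3031 CPM in WT, so this defining marker of the labelled cell type was present in every library. The sums of 5 macrophage markers (Lyz2, Csf1r, Cd68, Tyrobp, Spi1) were 150.8 to 170.2 CPM in KO and 78.62 to 102.4 CPM in WT, and those of 5 markers of the distal nephron (Umod, Slc12a1, Slc12a3, Aqp2, Calb1) were 252.5 to 1351 CPM in KO and 171.6 to 321.1 CPM in WT, with the highest in KO2. The sums of 5 proximal tubule markers (Slc34a1, Slc22a12, Slc5a2, Lrp2, Slc22a6) were 431 to 576.7 CPM in KO and 297.3 to 408.5 CPM in WT, and those of 5 endothelial markers (Pecam1, Cdh5, Kdr, Emcn, Ehd3) were 5281 to 5604 CPM in KO and 5740 to 6146 CPM in WT. In bulk RNA fewer cells of a type and less RNA per cell cannot be told apart, and the part of these other cells in the usage values was not tested.

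The results turned on 9 first exons, and the splice donor end is the part of each that the spliceosome reads. The last 30 bases of these exons, and of the Myom2 start with the most counts, are printed with the last 3 exonic bases in capitals. Sequences and coordinates are those of GENCODE M21 transcripts on GRCm38, found with the transcript identifiers that the deposited files list.
Myom2 part 1 (chr8:15057710-15057739, plus strand): ttttctcctctgctggctcttctccttTGG
Myom2 part 2 (chr8:15059084-15059113, plus strand): ctgcaaagacagagtggagcaaaagcgTGG
Myom2 part 3 (chr8:15060393-15060422, plus strand): ttgaagaggaggcacgcctcatcttttTGG
Nebl part 50 (chr2:17528070-17528099, minus strand): cttaactatgccaaaccccttataacgCAG
Sgms1 part 20 (chr19:32210828-32210857, minus strand): ctttccaggaggctgcctttgggaggaGAG
Sgms1 part 42 (chr19:32389552-32389581, minus strand): ccccgctgtagactggcggactgcatgCAG
Osbpl9 part 46 (chr4:109156357-109156386, minus strand): gctgctgctgctggcttgtgcttacagAAG
Dpp4 part 14 (chr2:62357370-62357399, minus strand): catcctccaaggagcacgggactttcgGAG
Slc38a7 part 16 (chr8:95853472-95853501, minus strand): gaacaacgcctacaaggtatgtgaaagGAG
Ccdc107 part 1 (chr4:43492994-43493023, plus strand): ctaggcgaaaggataaggaacatgtccCTC
The exon ended in G for 88.9% of these 9 members, with Ccdc107 part 1 as the exception. This compares with 82.0% of 8562 members matched in GENCODE M21 and 82.8% of 110805 first exons of spliced transcripts there. Both sets were limited to first exons of at least 30 bases, and members to those whose first intron had the same length in both annotations. An AG end was present in 66.7% of the 9, 53.4% of members and 54.1% of the first exons in GENCODE M21. With 9 exons these shares are a description of the sequences only.

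For 2708 members a RefSeq promoter on GRCm38.p6 began within 50 bases of the same transcript's start. In the 250 bases before the start, the median number of CpG dinucleotides was 9 for member promoters and 6 for all 32851 RefSeq promoters. The letters TATAAA, searched on the sense strand between 45 and 16 bases before the start, were in 2.07% of member promoters and 2.14% of all promoters. Promoters of Sgms1 part 20, an internal start that fell in usage, and of Tsc22d3 part 7, whose count was level while its gene fell, are shown with CpG in capitals.
Sgms1 part 20 (chr19:32211014-32211263, minus strand): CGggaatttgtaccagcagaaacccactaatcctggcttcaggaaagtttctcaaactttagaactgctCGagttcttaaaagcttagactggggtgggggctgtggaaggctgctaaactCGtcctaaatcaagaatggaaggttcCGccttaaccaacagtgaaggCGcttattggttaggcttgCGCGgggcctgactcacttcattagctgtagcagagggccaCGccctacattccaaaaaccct
Tsc22d3 part 7 (chrX:140542669-140542918, minus strand): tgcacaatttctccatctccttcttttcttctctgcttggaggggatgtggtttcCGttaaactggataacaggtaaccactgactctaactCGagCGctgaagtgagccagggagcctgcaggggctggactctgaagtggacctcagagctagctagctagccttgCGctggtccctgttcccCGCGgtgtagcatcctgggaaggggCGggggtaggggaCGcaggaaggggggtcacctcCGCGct
The Sgms1 promoter holds 8 CpG and the Tsc22d3 promoter 10, and neither holds TATAAA in that window. The annotated exon of Sgms1 part 20 is 163 bases in the deposited files and 186 bases in GENCODE M21. The count filter kept 23.2% of the 829 with fewer than 5 CpG, 46.3% of the 927 with 5 to 14, and 73.6% of the 952 with 15 or more.

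Usage of a first exon is its read count as a percent of the summed part counts of its gene. Of the 10035 members 2172 had no count in any library and 4822 had counts in all 6. A further 59 had counts in every KO library and none in WT, with at most 13 counts, and 19 had the reverse, with at most 6. These low counts allow no statement on presence or absence. After the filter on low counts, 3660 members in 2866 genes were tested for a change of usage relative to the rest of their gene with diffSpliceDGE in edgeR. The median usage of tested members was 1.01%, 0.958% and 1.04% in KO1, KO2 and KO3, against 1.00%, 1.03% and 1.02% in WT1, WT2 and WT3, so the groups overlapped. The median log2 usage change was -0.026 over tested members and -0.002 over all 236061 tested parts.

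Usage of 9 members in 7 genes changed at a Benjamini-Hochberg adjusted p under 0.05, of which 6 were higher and 3 lower in KO. Over all tested parts the same rule called 148, or 0.0627%, with 0.0407% higher and 0.022% lower, beside 0.246% of members. Of the 148 calls 28 lay in the 7 genes, 20 of them in Nebl alone. At an unadjusted p under 0.05 there were 134 members, 59 higher and 75 lower, where the background over all parts was 1.16%. The count of 9 moved to 5 without KO1, KO2 or WT1 and to 2 without WT2. With 3 libraries a group the median SE of a member's log2 change was 0.24, and it was 0.34 for members under 50 counts per library and 0.09 for those with 1000 or more. Modest changes in a weakly used first exon were therefore mostly not detectable at this depth.

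**Figure D1:**
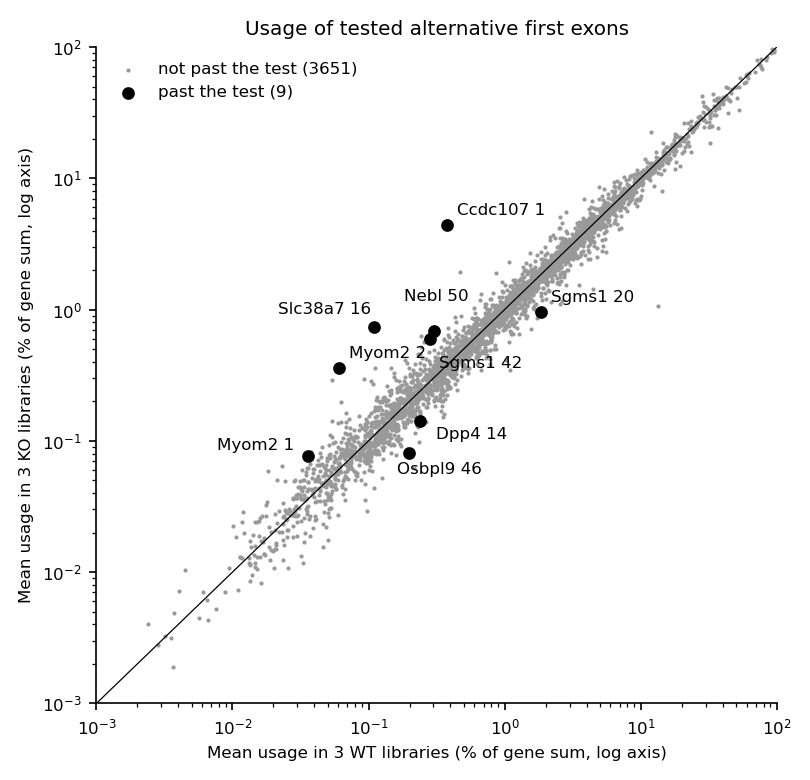
Each point is 1 of the 3660 tested alternative first exons, with its mean usage over 3 KO libraries on the vertical axis and over 3 WT libraries on the horizontal axis, both in percent of the gene's counts on log axes. The line marks equal usage, and the 9 exons past the test (black, named with the part number) all have usages below 5% in both groups.

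Myom2 encodes myomesin 2, a protein of the M-band that crosslinks myosin filaments in striated muscle, and it has 4 alternative first exons. Part 2 (chromosome 8, 15058975 to 15059113, NCBIM37, plus strand) had 1348, 1175 and 1041 counts in KO and 132, 137 and 145 in WT. Every KO library was thus far above every WT library. Its usage was 0.359 ± 0.0357% in KO and 0.0604 ± 0.00224% in WT (SD, n = 3 each), a log2 change of 2.58 (SE 0.12, diffSpliceDGE adjusted p = 1.14e-44). It passed in all 14 alternative fits, with log2 changes of 2.53 to 2.65.

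Part 1 of Myom2, the outermost start (chromosome 8, 15057653 to 15057739), had 226, 321 and 197 counts in KO and 63, 91 and 95 in WT, so the groups did not overlap. Its log2 usage change was 1.08 (SE 0.19, diffSpliceDGE adjusted p = 0.0112). The call was lost without KO2 (adjusted p = 1), WT1 (0.361) or WT2 (0.0929), and in the edgeR test with the gene total as offset (0.0957). The start with the most counts, part 3 (chromosome 8, 15060190 to 15060422), had 5849, 4982 and 5572 counts in KO and 4695, 5338 and 5304 in WT. Its usage was 1.65 ± 0.0434% in KO and 2.23 ± 0.0905% in WT (SD, n = 3 each), and its log2 change of -0.44 did not pass diffSpliceDGE (adjusted p = 0.479) but passed that edgeR test with the offset (adjusted p = 2.13e-04), which called 13 members and 0.14% of all parts. Part 3 also passed in DESeq2 (adjusted p = 3.11e-26) and limma-voom diffSplice (adjusted p = 0.00356), which called 0.283% and 0.173% of all parts. It passed in no diffSpliceDGE fit without 1 library.

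Among the counts in the 4 starts of Myom2, part 3 took 79.0 ± 2.38% in KO and 95.8 ± 0.134% in WT, part 2 took 17.2 ± 1.66% in KO and 2.59 ± 0.122% in WT, and part 1 took 3.62 ± 1.15% in KO and 1.54 ± 0.226% in WT (SD, n = 3 each). These are shares of counts, not corrected for exon length. In GENCODE M21 the transcript of part 3 is annotated as retained intron and that of part 2 as processed, while that of part 1 is protein-coding. The level of the whole gene was 1382 ± 15.7 CPM in KO and 1163 ± 99.2 CPM in WT, a log2 change of 0.25 that did not pass (edgeR adjusted p = 0.12). The transcript of part 2 has 1 other exonic part of its own, of 5 bases, with 24, 13 and 16 counts in KO and 16, 10 and 7 in WT (log2 usage change 0.12, diffSpliceDGE adjusted p = 1.00). The 21 other parts private to the transcript of part 1 had log2 usage changes of -0.06 to 0.07. None of these 22 parts passed. The 21 parts held 209375, 177297 and 189823 counts in KO and 122597, 132702 and 144074 in WT, most of the counts of the gene. Their usage is measured against the gene they make up, so it could not show a shift of the few counts in part 1. The shares of starts 1, 2 and 3 did not overlap between groups.

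**Figure D2:**
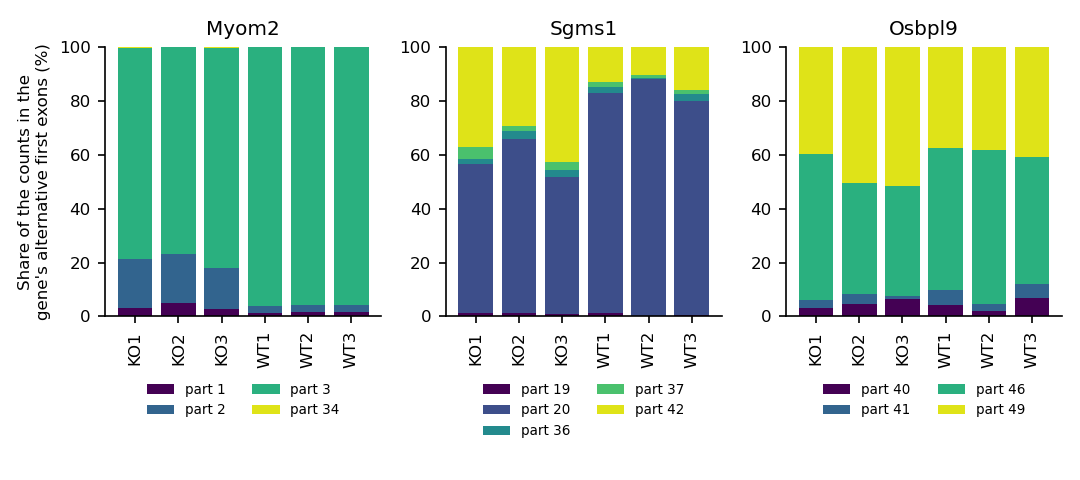
Stacked bars give, for each KO and WT library, the percent of counts that each alternative first exon took among those of its gene, for Myom2, Sgms1 and Osbpl9. Part 2 of Myom2 and part 42 of Sgms1 are thicker in all 3 KO libraries than in all 3 WT libraries.

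Nebl encodes nebulette, an actin-binding protein with nebulin repeats known from the cardiac Z-disc, and the gene also makes a short form with a LIM domain from another start. Part 50 (chromosome 2, 17449697 to 17449951, NCBIM37, minus strand), the first exon of a transcript annotated as processed, had 420, 211 and 451 counts in KO and 173, 146 and 156 in WT. KO2 was the lowest of the KO libraries and still above all WT libraries. Usage was 0.692 ± 0.186% in KO and 0.300 ± 0.0215% in WT (SD, n = 3 each), a log2 change of 1.22 (SE 0.23, diffSpliceDGE adjusted p = 0.00152).

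Parts downstream of this start were higher as well. Of the 46 tested parts of Nebl 20 changed, all of them higher in KO, with log2 changes of 1.10 to 1.33, and all lay between parts 13 and 50. Of the 31 tested parts from 10 to 50 all had a positive change, with a median of 1.19. The bounds of this stretch were set after the values were seen, so its summaries, and those of the parts beside it, are a description only. All 41 parts of this stretch, untested ones included, summed to 9048, 4428 and 8801 counts in KO and 2967, 3562 and 3552 in WT. The 8 tested parts from 1 to 9, toward the 3′ end, had a median of -0.13, and the 7 parts from 51 to 57, which lie upstream, had a median of -0.05. None of these 15 passed, while the gene as a whole stood at 213 ± 17.7 CPM in KO and 268 ± 27.2 CPM in WT (SD, n = 3 each; log2 change -0.34, edgeR adjusted p = 0.111). Of the 3 other parts listed only in the transcript of part 50, 2 were among the 20 that changed. Part 48 had 316, 137 and 309 counts in KO and 86, 109 and 116 in WT (diffSpliceDGE adjusted p = 0.00659). Part 49 had 295, 149 and 279 counts in KO and 98, 108 and 118 in WT (diffSpliceDGE adjusted p = 0.0347). The 1700-base part 36 had 18, 9 and 13 counts in KO and 11, 8 and 23 in WT and did not pass (diffSpliceDGE log2 change 0.01, adjusted p = 1.00). The call of part 50 was lost in 5 of the 6 fits without 1 library, with adjusted p-values of 0.0521 without KO1, 0.117 without KO3, 0.0684 without WT1, 0.1 without WT2 and 0.0601 without WT3. It was lost as well in limma-voom (adjusted p = 0.414, log2 change 0.81).

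**Figure D3:**
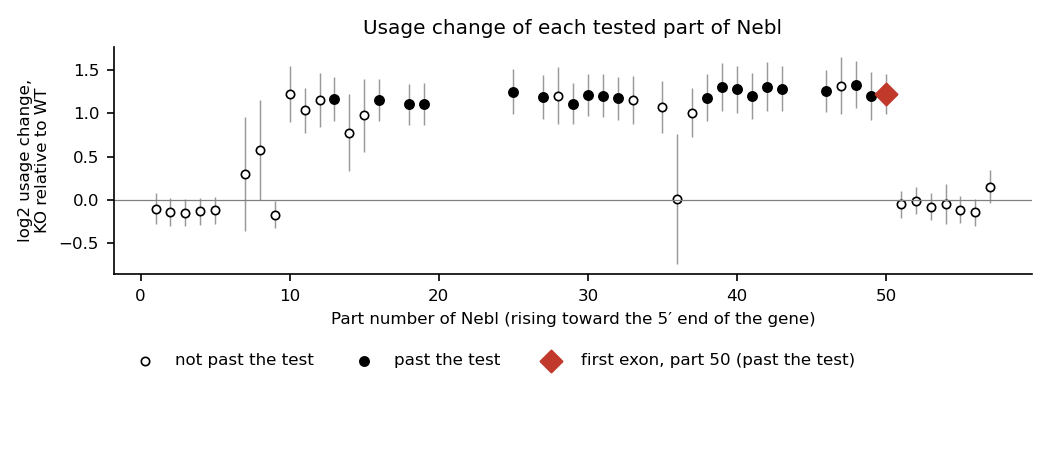
Points give the log2 usage change, KO relative to WT, of each of the 46 tested parts of Nebl with its SE, against the part number, which rises toward the 5′ end. The stretch from part 10 to part 50, bounded after the values were seen, lies near 1.2, apart from part 36 near 0. The parts on either side of the stretch lie near 0, with parts 7 and 8, of few counts, above 0.

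Sgms1 encodes sphingomyelin synthase 1, which makes sphingomyelin from ceramide in the Golgi, and has 5 alternative first exons. The internal start, part 20 (chromosome 19, 32285318 to 32285480, NCBIM37, minus strand), had 296, 296 and 204 counts in KO and 552, 876 and 564 in WT. Usage was 0.951 ± 0.184% in KO and 1.85 ± 0.436% in WT (SD, n = 3 each), a log2 change of -0.98 (SE 0.15, diffSpliceDGE adjusted p = 1.61e-05). The outermost start, part 42 (chromosome 19, 32464042 to 32464204), went the other way. It had 198, 134 and 170 counts in KO and 88, 104 and 113 in WT, with usage of 0.598 ± 0.0939% in KO and 0.284 ± 0.018% in WT (SD, n = 3 each), a log2 change of 1.07 (SE 0.25, diffSpliceDGE adjusted p = 0.0446).

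Part 20 took 57.1 ± 6.94% of the counts in the Sgms1 starts in KO and 83.1 ± 4.48% in WT, and part 42 took 36.3 ± 6.66% in KO and 13.1 ± 2.72% in WT (SD, n = 3 each). The groups did not overlap for either share, and part 20 had more counts than part 42 in every library. In GENCODE M21 the transcript of part 42 is annotated as retained intron and that of part 20 as protein-coding. The gene stood at 117 ± 5.82 CPM in KO and 182 ± 22.9 CPM in WT (log2 change -0.64, SE 0.10, edgeR adjusted p = 0.0313), and without 1 library it passed only without WT3 (adjusted p = 0.0416 to 0.108 over the 6 fits). The fall of part 20 was lost without WT2 (adjusted p = 0.141), the library with its highest count. The rise of part 42 did not pass in any of the 6 fits without 1 library, with adjusted p-values of 1 without KO1, 0.051 without KO2, 0.315 without KO3, 0.69 without WT1, 0.522 without WT2 and 0.0982 without WT3. Part 42 shares 10 bases with ENSMUSG00000024893 on the plus strand, whose total was 793, 616 and 633 counts in KO and 349, 375 and 373 in WT. Since the counts were treated as unstranded, reads of that gene in the shared bases cannot be told apart from those of Sgms1.

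Osbpl9 encodes an oxysterol-binding protein-like lipid transfer protein, and the first exon that fell was part 46 (chromosome 4, 108828962 to 108829215, NCBIM37, minus strand). It had 98, 44 and 69 counts in KO and 146, 166 and 160 in WT. Usage was 0.0802 ± 0.0279% in KO and 0.200 ± 0.0317% in WT (SD, n = 3 each), a log2 change of -1.32 (SE 0.18, diffSpliceDGE adjusted p = 0.00266). It did not pass without KO2 (adjusted p = 0.0567), WT1 (0.0511) or WT2 (0.238). A neighbouring start, part 49, had 72, 54 and 87 counts in KO and 104, 110 and 138 in WT, again with no overlap. Its log2 change of -0.85 did not pass diffSpliceDGE (adjusted p = 1.00) and passed the edgeR test with the gene total as offset (adjusted p = 0.0459). Osbpl9 as a whole stood at 363 ± 27.6 CPM in KO and 403 ± 13.4 CPM in WT (log2 change -0.15, edgeR adjusted p = 0.241).

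Dpp4 encodes dipeptidyl peptidase 4, a cell surface serine peptidase, and was in the list of podocyte genes. Part 14 (chromosome 2, 62195427 to 62195764, NCBIM37, minus strand), an internal start of a transcript annotated as processed, had 448, 243 and 357 counts in KO and 720, 770 and 783 in WT. Usage was 0.143 ± 0.0277% in KO and 0.238 ± 0.0157% in WT (SD, n = 3 each), a log2 change of -0.73 (SE 0.09, diffSpliceDGE adjusted p = 0.00212). The call was lost without KO2 (adjusted p = 0.198) or WT2 (0.194). Of the 338 bases 232 overlap Gm13561 on the plus strand, and that gene had 558, 330 and 456 counts in KO and 854, 963 and 989 in WT. The 4 parts of Gm13561 that do not touch part 14 had only 4, 17 and 7 counts in KO and 0, 0 and 1 in WT. Most of its counts were thus in the part that overlaps part 14, both within and beyond the shared bases. The reads in the overlap therefore cannot be given to either gene. Dpp4 itself was lower in KO over all of its parts, at 1006 ± 35.3 CPM, against 1618 ± 87.9 CPM in WT (SD, n = 3 each). Its log2 change was -0.69 (SE 0.06, edgeR adjusted p = 0.0108), and the call was lost without WT1 or WT2 (highest adjusted p = 0.0719).

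Slc38a7 encodes an amino acid transporter of the lysosome. Its outermost start, part 16 (chromosome 8, 98377372 to 98377439, NCBIM37, minus strand), had 43, 32 and 14 counts in KO and 8, 2 and 0 in WT. A count of 0 in WT3 allows usage of up to 0.0711% by counting error alone, at 3 counts of the gene's 4220. Usage was 0.740 ± 0.348% in KO and 0.109 ± 0.137% in WT (SD, n = 3 each), a log2 change of 2.85 (SE 0.42, diffSpliceDGE adjusted p = 7.86e-04). Reads covered 82.4%, 36.8% and 58.8% of its 68 bases in KO and 52.9%, 4.41% and 0% in WT. The next part downstream, part 15, had 92, 120 and 83 counts in KO and 52, 57 and 80 in WT and did not pass (log2 change 0.44, diffSpliceDGE adjusted p = 1.00). It was the highest of the 9 other parts private to the transcript of part 16. These had a median log2 usage change of 0.02 (-0.16 to 0.44), and none passed. They held most of the gene's counts, so their usage could not show a shift of the few counts in part 16. The call for part 16 was lost without KO1 (adjusted p = 0.109), WT2 (0.0853) or WT3 (0.248), in the edgeR test with the gene total as offset (0.229) and in DESeq2 (1).

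Ccdc107 encodes a coiled-coil protein, and its part 1 (chromosome 4, 43505772 to 43505895, NCBIM37, plus strand) had 645, 27 and 38 counts in KO and 16, 5 and 21 in WT. KO1 alone held most of them, at a usage of 11.7%, against 0.606% and 0.875% in KO2 and KO3 and 0.162% to 0.509% in WT. The log2 usage change was 3.58 (SE 0.49, diffSpliceDGE adjusted p = 4.89e-06), and without KO1 it was 0.93 (adjusted p = 1). With the gene total as offset the edgeR adjusted p was 0.486. All 124 bases lie within Rmrp on the minus strand, the RNA component of the RNase MRP ribonucleoprotein, which had 849, 34 and 46 counts in KO and 21, 6 and 28 in WT. The reads of this stretch cannot be told apart between Ccdc107 and Rmrp. The only other part private to the same Ccdc107 transcript had 69, 49 and 88 counts in KO and 57, 51 and 95 in WT, with no call (log2 change -0.38, diffSpliceDGE adjusted p = 1.00).

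**Figure D4:**
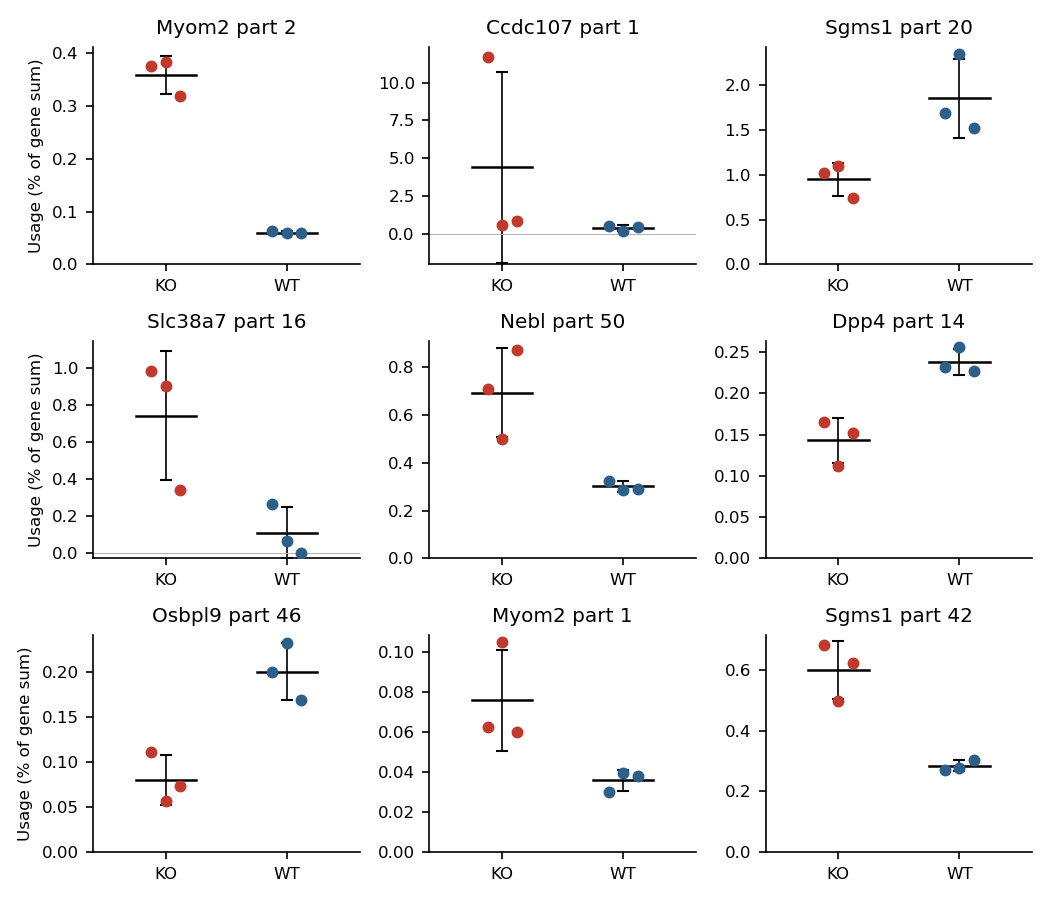
Each panel shows 1 of the 9 first exons past the test, with usage in percent of the gene's counts for 3 KO and 3 WT libraries as points and the mean with its SD as lines. Groups do not overlap in any panel, and the KO mean of Ccdc107 part 1 rests on 1 library at 11.7%.

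The 9 were spread over several classes of first exon. By place in the gene, 4 of 1820 tested outermost members passed, all higher, and 5 of 1840 tested internal members passed, 2 higher and 3 lower. Internal members were used less, with a median of 0.348% in KO and 0.354% in WT, against 2.34% in KO and 2.36% in WT for outermost members. By usage, 8 of the 9 came from the 1800 tested members under 1% in WT, 1 from the 1577 at 1% to 10%, and none from the 283 at 10% or more, of which 4 had an unadjusted p under 0.05. By transcript type in GENCODE M21, 4 of 2527 protein-coding starts, 4 of 637 starts of processed transcripts and 1 of 84 starts of retained-intron transcripts passed. Of 309 tested members that overlap another gene 3 passed, and of 3351 that do not 6 passed. None of these splits was tested, and the background for each count is the 0.0627% of all parts.

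Other transcript ends were tested in the same fit. First exons common to all transcripts of a gene numbered 539 among the tested parts, with a median log2 usage change of -0.028 and 0 calls. Alternative last exons numbered 3333, with a median of 0.004 and 4 calls. The background is the 148 calls among 236061 parts, and alternative first exons had 9 among 3660. Coverage at the 5′ side of transcripts overlapped between the groups. With the bases found in every transcript split into 3 equal stretches, the median log2 ratio of counts per base in the 5′ stretch over the 3′ stretch was, over 2735 genes, 0.22, 0.23 and 0.214 in KO and 0.22, 0.264 and 0.227 in WT.

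Members were also compared by whether the 3 KO usages lay wholly above or below the 3 WT usages. Among 6005 members with counts in genes of at least 1000 counts on average, 305 lay above and 328 below, or 5.08% and 5.46%. Over all 218497 such parts of single genes the shares were 5.25% above and 5.54% below, so the members were at the background. An exact permutation test of 3 against 3 libraries cannot give a two-sided p under 0.1, which each such member reaches. From these, the 10 with the largest positive and the 10 with the largest negative difference in percentage points, KO minus WT, are described, in genes with a symbol. Ccdc107 part 1 was the only one of the 20 past diffSpliceDGE.

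Of the 10 first exons with negative differences 6 overlap another gene, each on the other strand, and of the 10 with positive differences 1 does. Of all members, with or without counts, 4.97% overlap another gene, and of the 3660 tested members 309 do. This feature was looked up after the values were seen. Plek, which encodes the protein kinase C substrate pleckstrin of platelets and leukocytes, had the largest difference. The usage of its outermost start, part 14, was 12.5 ± 1.57% in KO and 19.3 ± 1.30% in WT (SD, n = 3 each; log2 change -0.63, diffSpliceDGE adjusted p = 0.213, edgeR with the gene total as offset 0.0298). Its counts were 360, 326 and 417 in KO and 264, 264 and 378 in WT, so the exon was not lower in raw counts. The whole gene was higher in KO, at 12.3 ± 1.15 CPM against 7.87 ± 1.04 CPM in WT (log2 change 0.65, edgeR adjusted p = 0.0494), and it passed in none of the 6 fits without 1 library (adjusted p = 0.0525 to 0.188). All 199 bases overlap Cnrip1 on the plus strand, whose level did not pass the test (log2 change 0.04, edgeR adjusted p = 0.857). Macrophage markers were higher in KO as given above, and their part in Plek was not tested.

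None of the other 5 first exons with a negative difference and such an overlap passed diffSpliceDGE. Irf5, an interferon regulatory transcription factor, had usage of 18.2 ± 0.844% in KO and 22 ± 1.29% in WT at part 20, within Tnpo3. Slc5a6, the sodium-dependent multivitamin transporter, had 28.7 ± 0.776% in KO and 32.4 ± 0.961% in WT at part 30, which shares 145 bases with Atraid. Tmem67, a protein of the ciliary transition zone, had 6.12 ± 1.4% in KO and 9.41 ± 0.326% in WT at part 41, which shares 289 bases with Rbm12b2. The diffSpliceDGE adjusted p was 0.171 for Tmem67 and 1.00 for Irf5 and Slc5a6. Oxsm, a mitochondrial fatty acid synthase component, had 11.6 ± 0.885% in KO and 14.7 ± 1.98% in WT at part 11, which shares only 21 of its 332 bases with Ngly1. A430035B10Rik, a noncoding gene, had 30.2 ± 4.58% in KO and 35.7 ± 0.666% in WT at part 16, which shares 36 of its 147 bases with genes on the plus strand. Without an overlap, Airn, the antisense RNA of the imprinted Igf2r locus, had 26.7 ± 0.780% in KO and 30.5 ± 1.95% in WT at part 10. First exons of Gbp8, Gm9946 and Ccdc30 were 2.55 to 3.02 percentage points lower in KO than in WT, with no call. Gbp8 part 15 had only 256, 4 and 17 counts in KO and 13, 3 and 9 in WT (log2 change -1.35, SE 2.50). The Gbp8 gene stood at 19.7 ± 28.4 CPM in KO and 0.907 ± 0.470 CPM in WT (SD, n = 3 each). Outside KO1 the usage of this exon thus rests on few reads.

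Among the positive differences, Rfesd, which encodes a Rieske iron-sulfur domain protein, had the largest, with usage of 34.9 ± 1.91% in KO and 30.3 ± 1.85% in WT at part 4 (SD, n = 3 each; diffSpliceDGE adjusted p = 1.00). Rnf128, an E3 ubiquitin ligase, differed in the balance of its starts. Its outermost part 1 had 5.90%, 6.51% and 4.09% in KO and 2.94%, 3.49% and 2.02% in WT, while part 2 had 5.42%, 4.83% and 6.91% in KO and 7.17%, 7.49% and 6.57% in WT. Part 1 took 48.9 ± 10.5% of the counts in the Rnf128 starts in KO and 28.2 ± 4.23% in WT, but the KO spread was wide and its log2 change of 1.12 (SE 0.69) did not pass (diffSpliceDGE adjusted p = 1.00). KO2, which had the highest distal nephron markers, also had the highest count of part 1, at 190, beside 98 in KO1, 45 in KO3 and 21 to 24 in WT. Part 2 was highest in KO2 as well, at 141, beside 90 in KO1, 76 in KO3 and 45 to 78 in WT. Whether other cells bear on the balance of these starts was not tested. Hoxc9, a homeobox gene, is named for both of its starts. Its part 1 had 4.21 ± 0.222% in KO and 2.57 ± 0.701% in WT, and part 2 had 6.05 ± 1.06% in KO and 4.32 ± 0.206% in WT. Pym1, a factor that binds the exon junction complex, had 7.35 ± 0.341% in KO and 5.23 ± 0.226% in WT at part 1. Smad6, an inhibitor of BMP signalling, had 47.8 ± 0.229% in KO and 46.7 ± 0.743% in WT at part 7. The other positive differences lay in Gpatch3, Lrrc75a and Fam107a, whose part 11 stood at 1.77%, 2.92% and 1.13% in KO and 0.400%, 0.127% and 0.889% in WT (log2 change 2.13, SE 0.78, diffSpliceDGE adjusted p = 1.00).

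**Figure D5:**
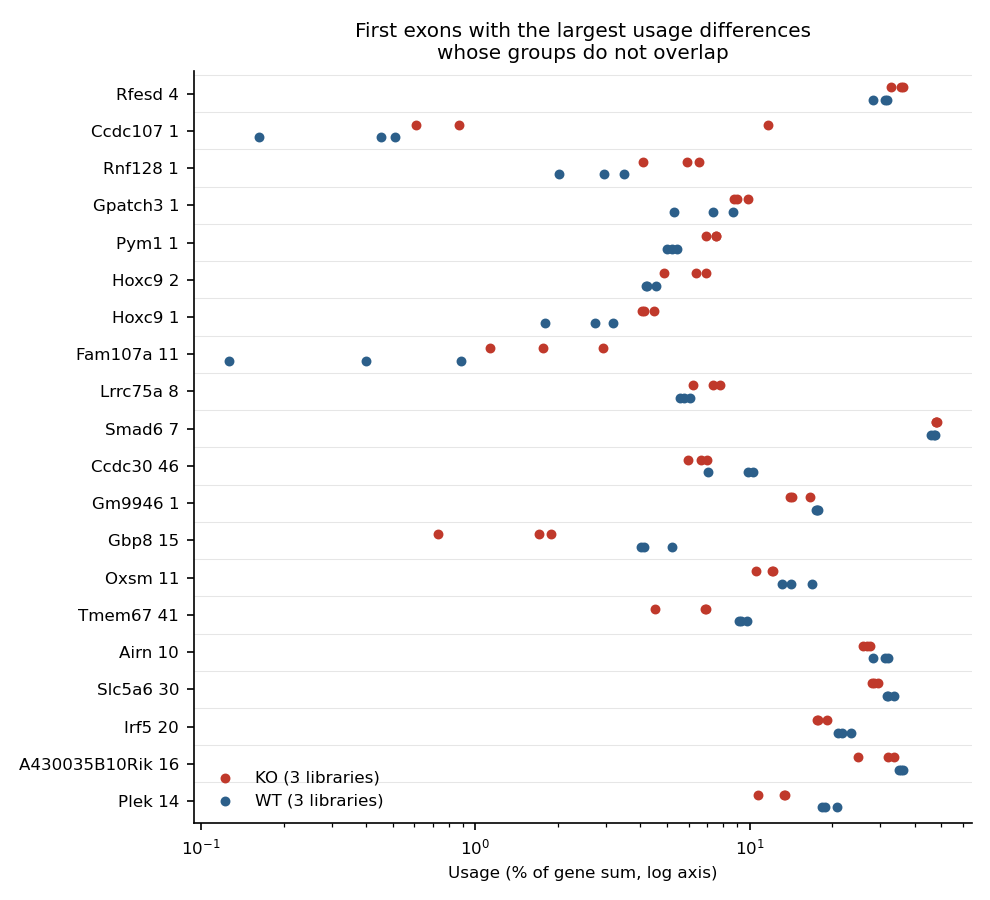
Rows are the 20 first exons with the largest usage differences among those whose groups do not overlap, from the largest positive difference, KO minus WT, at the top to the largest negative one at the bottom. Points are single libraries, KO above WT in each row, and the axis is usage in percent of the gene's counts on a log scale; most rows differ by a few percentage points.

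By gene list, calls are set beside the 0.0627% of all parts and 0.246% of tested members that passed. Of the 34 tested members in podocyte genes 1 passed, Dpp4 part 14, which is too few to set a share against that background, and 3 had an unadjusted p under 0.05. None passed among 35 in actin regulators, 85 in genes known for alternative promoters, 30 in spliceosome and RNA-binding genes, 12 in tubule transport genes, 6 in endothelial and mesangial genes and 1 in macrophage genes. At an unadjusted p under 0.05 the genes known for alternative promoters had 5 and the other 5 lists 0, where the background over all parts is 1.16%. Median log2 usage changes of the lists with more than 10 tested members were -0.025 for podocyte genes, -0.021 for actin regulators, -0.005 for genes known for alternative promoters, -0.026 for spliceosome and RNA-binding genes and -0.154 for tubule transport genes, beside -0.002 for all parts.

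Within the podocyte list, Agrn encodes agrin, a heparan sulfate proteoglycan of basement membranes with a long and a short N-terminal form from separate starts. Part 48, the internal start, had 200, 148 and 263 counts in KO and 119, 139 and 192 in WT. It took 14.1 ± 1.45% of the counts in the Agrn starts in KO and 10.4 ± 0.432% in WT (SD, n = 3 each), with no overlap in usage between the groups, and its log2 change of 0.51 (SE 0.16) did not pass (diffSpliceDGE adjusted p = 1.00). Zbtb7c, a zinc finger transcription factor gene, had usage at part 1 of 0.429 ± 0.0832% in KO and 0.733 ± 0.177% in WT and at part 4 of 3.28 ± 0.132% in KO and 2.82 ± 0.055% in WT. Part 4 took 88.5 ± 1.89% of the counts in the Zbtb7c starts in KO and 79.5 ± 3.73% in WT. Neither part passed (diffSpliceDGE adjusted p = 1.00).

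Tsc22d3 encodes GILZ, a glucocorticoid-induced leucine zipper protein with several starts, and its part 7 is the one whose promoter is printed above. Usage of part 7 was 0.580%, 0.603% and 0.582% in KO and 0.297%, 0.154% and 0.327% in WT, so the groups were far apart. The log2 change was 1.27 (SE 0.56, diffSpliceDGE adjusted p = 1.00, edgeR with the gene total as offset 0.0638). In counts the exon did not differ much, with 149, 113 and 93 in KO and 132, 76 and 109 in WT. The gene as a whole was lower in KO, at 83.7 ± 16.3 CPM against 219 ± 65.5 CPM in WT (SD, n = 3 each; log2 change -1.39, edgeR adjusted p = 0.0449), and without 1 library it passed only without WT3 (adjusted p = 0.0353 to 0.161 over the 6 fits). Sept9, a septin, had 21, 12 and 11 counts in KO and 4, 4 and 5 in WT at part 7 (log2 change 1.45, SE 0.53, diffSpliceDGE adjusted p = 1.00). Mafk, a small Maf transcription factor, had usage of 3.35 ± 1.03% in KO and 4.33 ± 1.03% in WT at part 3, and the groups overlapped.

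Among cytoskeletal genes, the focal adhesion protein gene Tns3 had usage of 0.0919 ± 0.00779% in KO and 0.0763 ± 0.00548% in WT at its outermost start, part 36 (log2 change 0.27, SE 0.12). Ank3, which encodes the membrane adaptor ankyrin G, had 0.502 ± 0.0764% in KO and 0.840 ± 0.193% in WT at part 1 (log2 change -0.79, SE 0.61). Myh10, nonmuscle myosin heavy chain IIB, and Tns1, a tensin, overlapped between groups. In splicing genes, Sf1, the branch point binding protein, had 0.160 ± 0.0227% in KO and 0.215 ± 0.0287% in WT at part 6 and 0.273 ± 0.0574% in KO and 0.369 ± 0.0197% in WT at part 7 (log2 changes -0.41 and -0.42). Hnrnpl part 4 had 23, 15 and 22 counts in KO and 14, 7 and 16 in WT (log2 usage change 0.70), and Ptbp1 part 10 had 36, 9 and 48 in KO and 15, 72 and 47 in WT (log2 usage change -0.68). None of these starts passed diffSpliceDGE (adjusted p = 1.00 for each).

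For the markers of other cell types, Aqp3, a water channel of the collecting duct, had usage of 6.90 ± 0.904% in KO and 9.85 ± 1.68% in WT at part 7 (log2 change -0.58, SE 0.94), with 56, 103 and 30 counts in KO and 22, 25 and 32 in WT. The RefSeq promoter of this start holds TATAAA in the window searched. KO2, the library with the highest distal nephron markers, also had the highest Aqp3 count. Slc26a7, an anion exchanger, had usage of 0.181 ± 0.0629% in KO and 0.122 ± 0.0167% in WT at part 25 (log2 change 0.61, SE 0.46). Its counts were only 6, 3 and 4 in KO and 10, 11 and 13 in WT, while the gene stood at 9.98 ± 0.804 CPM in KO and 47.2 ± 4.03 CPM in WT (log2 change -2.25, SE 0.09, edgeR adjusted p = 8.18e-04, past in all 6 fits without 1 library). Kcnj15, a potassium channel, and Slc7a7, an amino acid transporter, overlapped between groups. Coro1a, an actin-binding protein of leukocytes and the only tested member of the macrophage list, had usage of 0.247 ± 0.0165% in KO and 0.376 ± 0.118% in WT at part 28 (log2 change -0.57, SE 0.64), and the groups overlapped. Its counts ran the other way, with 23, 14 and 25 in KO and 9, 12 and 21 in WT, beside a gene level of 34.4 ± 6.55 CPM in KO and 18.8 ± 4.58 CPM in WT. Esam, an endothelial adhesion molecule, had 6.37 ± 0.109% in KO and 6.59 ± 0.375% in WT at part 1, and the starts of Ednrb and Pdgfra differed by less than their spread. None passed diffSpliceDGE (adjusted p = 1.00 for each).

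In most genes the leading start was the same in every library. Of 877 genes with 2 or more members and at least 100 counts in them on average, 816, or 93.0%, had the same first exon with the most counts per base in all 6 libraries. In 16 genes the leader differed between the group means, and in 4 genes 1 exon led in all KO libraries and another in all WT libraries. These 4 were Crygn, Sesn1, Vmac and Gm15958, named here after their values were seen.

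Crygn, which encodes a gamma crystallin known from the lens, was the clearest of them. Part 5 (chromosome 5, 24263641 to 24263826, NCBIM37, minus strand) had 319, 321 and 346 counts in KO and 7, 2 and 9 in WT. Part 2 (chromosome 5, 24257109 to 24257142) had 20, 14 and 12 counts in KO and 4, 5 and 5 in WT. The whole gene summed to 1381, 1386 and 1592 counts in KO and 60, 19 and 67 in WT, a log2 change of 4.65 (SE 0.41, edgeR adjusted p = 0.0097, past in all 6 fits without 1 library). Relative to the gene, part 2 had a log2 usage change of -3.24 (diffSpliceDGE adjusted p = 0.159) and part 5 of 0.84 (adjusted p = 1.00), so neither passed, while part 2 passed in DESeq2 (adjusted p = 9.47e-05). With WT counts of 9 or fewer, the leading exon in WT was set by a handful of reads. In Sesn1, a sestrin, part 2 had 1.6, 1.03 and 0.987 counts per base in KO and 0.879, 1.03 and 1.04 in WT, and part 1 had 0.999, 0.787 and 0.853 in KO and 0.937, 1.03 and 1.08 in WT. The values of the starts of Sesn1 were thus close in WT, and those of Vmac and Gm15958 had diffSpliceDGE adjusted p-values of 1.00.

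Last, the level of the genes that hold an alternative first exon was tested. Of 5396 such genes 97 were higher and 138 lower in KO, or 4.36%, where the background was 3.37% of 19742 genes, 1.62% higher and 1.76% lower. This count fell to 8 without WT2, 13 without WT1, 22 without KO1, 32 without KO2, 87 without KO3 and 88 without WT3. Of 56 tested first exons in genes that were higher 0 passed the usage test, and of 138 in genes that were lower 3 passed, in Sgms1 and Dpp4. The other 6 lay among 3466 in genes whose level did not pass. At an unadjusted p under 0.05 there were 8 in genes that were higher, 8 in genes that were lower and 118 in the rest. The background over all parts was 1.16%.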

How the data were processed

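The deposited tables hold raw read counts per exonic part, covered bases, and the covered fraction of each part; per the file headers, the authors used the Ensembl annotation NCBIM37.67. Alignment was with TopHat 1.4.1, per the submitters' processing notes, which list the human build GRCh37 although the files use a mouse build. No source used here names the counter or says whether it used strand, and counts were treated as unstranded. A read over several parts enters a gene sum more than once.

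Usage was tested with diffSpliceDGE in edgeR 4.0.16 (R 4.3.3; filterByExpr, genes with at least 2 kept parts, TMM, all 6 libraries, no covariates), adjusted over all parts, and its coefficients were converted to log2, with an SE derived from the F statistic. Gene sums were tested with edgeR's quasi-likelihood test. Alternatives were RLE size factors, 2 other filters, the gene total as offset, limma-voom diffSplice (limma 3.58.1), DESeq2 1.42.0, a replicate block, each library left out, genes without overlaps, and for usage other minimums and denominators. The usage tests were checked on simulated data, where they found most of the largest changes and missed most of the smallest.

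The members, the gene lists and the tests were chosen with earlier results of these data known. Named first exons were those past the test, the 10 largest differences in usage in each direction among members whose groups did not overlap, up to 4 per list by smallest p, and other starts of these genes. Symbols came from GENCODE M21 by identifier. Intervals from 0 counts cover counting error only. The summed podocyte markers are not reported here.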

Additional observations from a re-analysis of the deposited data

How the results depend on the processing

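RLE size factors, a filter of 10 counts in 3 libraries and no filter left the 9 calls of first exons, and the gene total as offset gave 13, of which 6 were among the 9. DESeq2 gave 24 calls and limma-voom 23, of which 7 and 6 were among the 9, and genes that overlap no other gene gave 4. Without 1 library at a time there were 2 to 10. Over all parts the 148 calls became 669 in DESeq2, 331 with the offset, 409 in limma-voom, 84 without overlapping genes, and 52 to 175 without 1 library. Host genes past the test, 235 in all, were 898 in DESeq2 and 8 to 88 without 1 library. Members whose usage groups did not overlap were 304 with the parts in every transcript as denominator, against 633. Only 2856 of the 6005 members have such parts, and these gave 158 higher and 146 lower with them and 155 higher and 149 lower with the gene sum, so the smaller count comes from the smaller set of members. The signs of 3 starts without a call turned without 1 library: log2 changes ran from -0.286 to 0.0838 for Cd2bp2 part 9, from -0.233 to 0.0275 for Ednrb part 13 and from -0.323 to 0.0732 for Pdgfra part 2. The cause of the other shifts was not tested.

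With the replicate block 9 first exons were called, 8 of them among the 9, and 129 parts and 26 host genes. Nebl part 50 was the call lost (adjusted p = 0.132). Same-numbered libraries correlated at 0.107, -0.06 and 0.158 in their deviations from the group means, so the numbers were not taken to pair the samples. Few first exons had enough counts for small shifts to be seen.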
